A study of Mus musculus with 8 samples.

Results

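Glutathione transferases and the antioxidant genes driven by the transcription factor NRF2 were followed here in 3134 cells, a mouse mammary line. The list named 41 genes, of 19938 genes measured. A gene was represented by the brightest probe set (a group of array probes summarised to a single value) that carried its symbol and no other. By that rule 38 of the 41 were measured: 19 of the 21 glutathione transferases and 19 of the 20 other NRF2 genes. Gsta1 and Gsta2 had only probe sets that they share with other genes, and no probe set was named for G6pdx alone. Of the 38, 35 had 1 probe set of their own and 3 (Gstm3, Prdx1 and Me1) had more than 1.

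RNA was measured on 8 Affymetrix oligonucleotide arrays, 2 in each of 4 groups: 4 h of 100 nM dexamethasone in the arm titled plus tetracycline, 4 h of 100 nM dexamethasone in the arm titled no tetracycline, and untreated cells at 0 h in each of these arms. The line came from C127 cells of an RIII mouse, and all groups carry 2 stably integrated transgenes: A-fos, a dominant negative that blocks DNA binding by AP-1, and the tetracycline regulator tTA, which drives A-fos in the absence of tetracycline (Tet-Off). All cells spent 48 h in charcoal-stripped serum before hormone. The treatment protocols state the opposite tetracycline condition (1 ug per ml) to the titles for all 8 samples, so the arms are called plus-titled and no-titled, and the labels do not settle in which arm A-fos was made. Whether the integrated line is a single clone, and whether replicates were separate cultures, is not given in the sources used here, and the p-values therefore reflect the spread between arrays alone, which may be technical.

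Glutathione is the main small thiol of the cell. Glutathione transferases couple it to electrophiles. The soluble classes among the listed genes are alpha, mu, pi, theta, omega, zeta and kappa. Some of them, such as mu, sit in gene clusters of close relatives. The MAPEG class is bound to membranes. NRF2, encoded by Nfe2l2, is held down by the adaptor KEAP1, which delivers it to a ubiquitin ligase. When electrophiles or oxidants modify KEAP1, NRF2 accumulates, pairs with small MAF proteins and binds antioxidant response elements (AREs) near genes for glutathione synthesis, thioredoxin recycling, quinone reduction and NADPH supply. An ARE can contain the letters of an AP-1 site, the element bound by the Fos and Jun proteins that A-fos blocks.

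Promoter sequences were searched for these elements because the ARE and the AP-1 site overlap in their letters. RefSeq promoter windows of GRCm38.p6, each 300 bases with 250 before and 50 after the start site, were found for 35 of the 41 genes (not for Gsta4, Gstt2, Hmox1, Gclc, Gsr and Abcc1). The motifs, searched on both strands, were the ARE core TGACNNNGC, its longer form TGACTCAGC, which contains an AP-1 site, and the AP-1 site TGACTCA. The ARE core was found for 12 of the 35 genes, in 25.5% of their 47 windows, against 12.4% of all 32851 windows. By group it was found in 4 of 19 glutathione transferases (21.1%) and 8 of 16 other NRF2 genes (50%), against 14% of all 27025 genes. By window the shares were 14.8% and 40%, the first of them near the 12.4% of all windows. The AP-1 site was found for 7 of the 35, in 14.9% of their windows, against 5.20% of all windows. The longer form was found for 2 genes, Prdx1 and Me1, the only members where the ARE core and the AP-1 site overlapped in the forms searched. A form that begins TGAG was not searched, such as the TGAGTCAGC that starts at -45 in the Srxn1 window below. A match is a description of the letters and not a binding site.

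The windows below belong to the 4 genes with a called arm difference at 0 h (described further on) whose promoter held a motif, and to Gclm, a textbook NRF2 gene that held one. Motif letters are in capitals. The Gstm5 window, chr3:107895604-107895903 (plus strand), holds an AP-1 site starting at -176 and an ARE core at -42 from the start site. The Gstm7 window, chr3:107931565-107931864 (minus strand), holds an ARE core at -129. The Mgst2 window, chr3:51660929-51661228 (plus strand), holds an AP-1 site at -52. The Srxn1 window, chr2:152105274-152105573 (plus strand), holds AP-1 sites at -102 and -45, and an ARE core at 29 after the start site. The Gclm window, chr3:122245307-122245606 (plus strand), holds an ARE core at -134.
Gstm5: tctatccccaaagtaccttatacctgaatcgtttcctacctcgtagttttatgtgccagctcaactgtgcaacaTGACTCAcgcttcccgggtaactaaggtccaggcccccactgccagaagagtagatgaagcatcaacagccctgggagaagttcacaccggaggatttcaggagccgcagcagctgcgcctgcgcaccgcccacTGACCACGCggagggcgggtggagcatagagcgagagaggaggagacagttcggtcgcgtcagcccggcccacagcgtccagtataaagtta
Gstm7: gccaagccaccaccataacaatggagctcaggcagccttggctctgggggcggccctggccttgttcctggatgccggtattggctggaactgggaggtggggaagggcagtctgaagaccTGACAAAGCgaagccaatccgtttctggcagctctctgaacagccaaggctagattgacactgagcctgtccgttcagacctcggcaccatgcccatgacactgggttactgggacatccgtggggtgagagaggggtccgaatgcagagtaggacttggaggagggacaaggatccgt
Mgst2: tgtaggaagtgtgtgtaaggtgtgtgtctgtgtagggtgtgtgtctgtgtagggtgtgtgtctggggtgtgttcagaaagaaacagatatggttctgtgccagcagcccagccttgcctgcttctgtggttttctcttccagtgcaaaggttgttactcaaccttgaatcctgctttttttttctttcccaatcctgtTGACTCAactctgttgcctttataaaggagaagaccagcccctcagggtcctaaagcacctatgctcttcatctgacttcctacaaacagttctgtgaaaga
Srxn1: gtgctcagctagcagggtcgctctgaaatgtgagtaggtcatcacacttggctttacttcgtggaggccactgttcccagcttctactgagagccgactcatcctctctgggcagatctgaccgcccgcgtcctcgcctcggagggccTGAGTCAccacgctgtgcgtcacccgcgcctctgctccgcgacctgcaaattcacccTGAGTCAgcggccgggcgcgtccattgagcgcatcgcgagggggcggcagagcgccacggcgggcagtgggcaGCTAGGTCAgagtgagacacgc
Gclm: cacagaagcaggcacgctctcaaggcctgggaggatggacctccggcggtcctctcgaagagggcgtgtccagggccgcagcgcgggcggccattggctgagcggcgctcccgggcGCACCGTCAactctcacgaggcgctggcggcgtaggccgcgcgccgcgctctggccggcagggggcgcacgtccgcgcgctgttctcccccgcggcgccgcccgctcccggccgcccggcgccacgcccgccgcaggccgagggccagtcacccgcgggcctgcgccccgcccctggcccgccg

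Values are log2 levels after RMA, the authors' normalisation, which gives every array nearly the same distribution and hides any shift common to most genes. Array medians lay between 5.36 and 5.47. Replicates correlated at 0.9932 to 0.9956 across genes, which are not independent replicates. Within pairs of replicates, 4 to 24 genes were over 2-fold apart, with 24 for untreated plus-titled cells, and 0 members were over 1.5-fold apart. Of 7 markers of mammary luminal epithelium, 0 lay among the lowest 25% of genes (under 4.34), and 0 were called between the arms at either time. Their mean levels were low to moderate, from 4.39 (Epcam) to 7.90 (Gata3). Epcam, Krt19 (4.78), Cdh1 (4.95) and Krt18 (5.09) lay under every array median. Of 5 measured markers of hepatocytes, a cell type rich in these enzymes, 4 lay among the lowest 25% and 0 were called. Of 5 basal markers 2 were called at each time, Krt14 (-1.41 at 4 h, -1.39 at 0 h) and Acta2 (1.45 and 1.66), while Krt5, Trp63 and Oxtr were not. The 7 mesenchymal markers had mean levels from 3.10 (Fap, the only 1 among the lowest 25%) to 12.82 (Vim), with Col1a2 at 11.76 and Fn1 at 11.21. Of these 7, Col1a2 was called lower in the plus-titled arm at both times (-0.65 and -0.70) and Pdgfrb higher at 0 h (0.52). Vim (-0.29 and -0.32) and Fn1 (-0.36 and -0.31) did not pass. The part of these markers in the results below was not tested. In bulk RNA, fewer cells of a type and less RNA per cell cannot be told apart.

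The arms differed in some mu-class glutathione transferases. Gstm5, Gstm7 and Gstm2 were higher in the plus-titled arm at both times, by up to 3.91-fold, whereas the membrane-bound Mgst2 was about 2-fold lower. The transcription factor gene Nfe2l2 and its target Hmox1 were higher at 4 h, and Srxn1 and Abcc1 were lower at 0 h. Each of these calls was lost in some fits that left out a single array. Most NRF2 target genes did not pass. The share of the other NRF2 genes called, 10.5% at each time, was near that of all genes. Calls are adjusted p-values under 0.05 from limma, fitted over all 19938 genes with Benjamini-Hochberg adjustment, and every adjusted p below comes from that model unless another is named. At 4 h of dexamethasone 8 of 38 members were called (21.1%), 6 higher and 2 lower, where 9.61% of all genes were called, 5.29% higher and 4.32% lower. At 0 h 7 of 38 were called (18.4%), 4 higher and 3 lower, against 9.38% of all genes, 6.20% higher and 3.18% lower. Members were chosen with earlier results of these data known, so their shares are not independent of them. Among glutathione transferases 6 of 19 (31.6%) were called at 4 h and 5 of 19 (26.3%) at 0 h. Among the other NRF2 genes it was 2 of 19 (10.5%) at each time, both higher at 4 h and both lower at 0 h. That share was near the 9.61% and 9.38% of all genes. At an unadjusted limma p under 0.05 there were 10 of 19 at 4 h and 7 of 19 at 0 h. Of all 19938 genes there were 4457 and 4538. The median absolute difference of these 19 was 0.25 at each time, against 0.14 at 4 h and 0.15 at 0 h for all genes. The members' median difference was -0.01 at 4 h and 0.04 at 0 h, and that of all genes was -0.01 and -0.02. The count fell at both times when an array of a compared group was left out. Such a fit keeps a single array in that group, so the fall can reflect fewer arrays as well as that array's values.

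**Figure D1:**
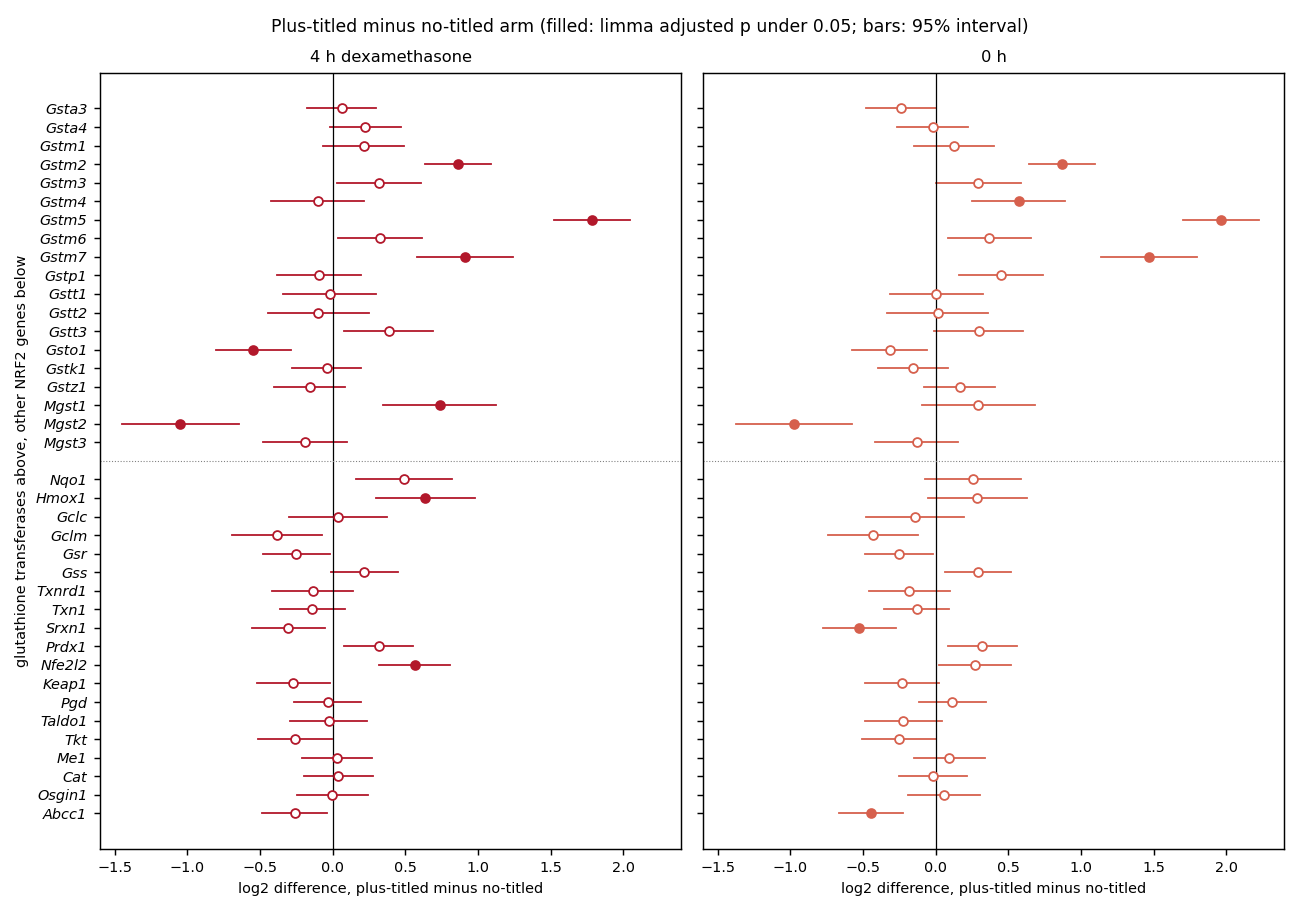
Arm difference on the log2 scale (x axis, plus-titled less no-titled) for the 38 members (rows), at 4 h of dexamethasone (left) and at 0 h (right), with 95% intervals and filled points for adjusted p under 0.05. Gstm5, Gstm7 and Gstm2 lie to the right at both times and Mgst2 to the left, while most of the other NRF2 genes have intervals that reach 0 or come close to it.

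Gstm5, a mu-class enzyme, had the largest difference of the members. Its level was 9.04 and 9.19 in the treated plus-titled cells, against 7.31 and 7.35 in the treated no-titled cells. At 0 h it was 9.11 and 9.36 in the plus-titled arm and 7.27 and 7.27 in the no-titled arm. The arms did not overlap at either time. The difference was 1.78 ± 0.12 at 4 h (SE, 3.44-fold, adjusted p = 6e-05) and 1.97 ± 0.12 at 0 h (3.91-fold, adjusted p = 2.92e-05). It was called in each of the 8 fits without 1 array, at 1.71 to 1.86 and 1.84 to 2.09.

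Gstm7, the next Gstm gene along the chromosome, had 6.78 and 6.62 in the treated plus-titled cells and 5.73 and 5.85 in the treated no-titled cells. Untreated cells had 6.85 and 6.78 in the plus-titled arm and 5.12 and 5.58 in the no-titled arm. All 4 plus-titled arrays lay above all 4 no-titled arrays. The differences were 0.91 ± 0.15 at 4 h (1.88-fold, adjusted p = 0.00423) and 1.47 ± 0.15 at 0 h (2.76-fold, adjusted p = 0.000432).

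Gstm2, another mu-class enzyme, had 9.16 and 9.17 in the treated plus-titled cells, against 8.30 and 8.31 in the treated no-titled cells. In untreated cells the level was 9.12 and 9.09 in the plus-titled arm and 8.19 and 8.28 in the no-titled arm. Replicates lay close to each other and the arms did not overlap. The difference was 0.86 ± 0.10 at 4 h and 0.87 ± 0.10 at 0 h, both 1.82-fold (adjusted p = 0.000801 and 0.000878). Like Gstm5, Gstm7 and Gstm2 were called in each of the 8 fits without 1 array at both times.

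Gstm4 was called at 0 h alone. It had 4.75 and 4.60 in the treated plus-titled cells and 4.70 and 4.86 in the treated no-titled cells, which overlapped. At 0 h the plus-titled arm had 5.07 and 4.94 and the no-titled arm 4.23 and 4.64, a difference of 0.57 ± 0.14 (1.49-fold, adjusted p = 0.0337). That call was lost without replicate 1 of the untreated no-titled group or either untreated plus-titled array (0.37 to 0.78 over the 8 fits, adjusted p up to 0.254). The change of the difference between 0 h and 4 h, -0.67 ± 0.20, did not pass (adjusted p = 0.76).

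The remaining mu-class genes did not pass at either time. Gstm6 differed by 0.33 at 4 h and 0.37 at 0 h, Gstm3 by 0.32 and 0.29 and Gstm1 by 0.21 and 0.13. All 7 were above 0 at 0 h and 6 of 7 at 4 h, with medians of 0.33 at 4 h and 0.57 at 0 h. Of all 19938 genes 9245 were above 0 at 0 h and 9396 at 4 h. The 7 genes lie on mouse chromosome 3 in the RefSeq annotation (GRCm38.p6), in the order Gstm5, Gstm7, Gstm6, Gstm3, Gstm2, Gstm1, Gstm4. Whether other genes lie between them was not looked at. The 2 largest differences were those of Gstm5 and Gstm7, which are next to each other in that order. Gstm2, called at both times, and Gstm4, at the opposite end and called at 0 h, were separated from them and from each other by uncalled genes. Mu-class genes are close in sequence and their probes can read each other, which was not tested. A dimmer Gstm3 probe set differed by 0.35 at 4 h and 0.08 at 0 h. By its number it falls among the probe sets of Gstm7, Gstm6, Gstm2, Gstm1 and Gstm4, and the brighter Gstm3 probe set does not. Whether the brighter one reads the gene in this cluster was not tested.

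**Figure D2:**
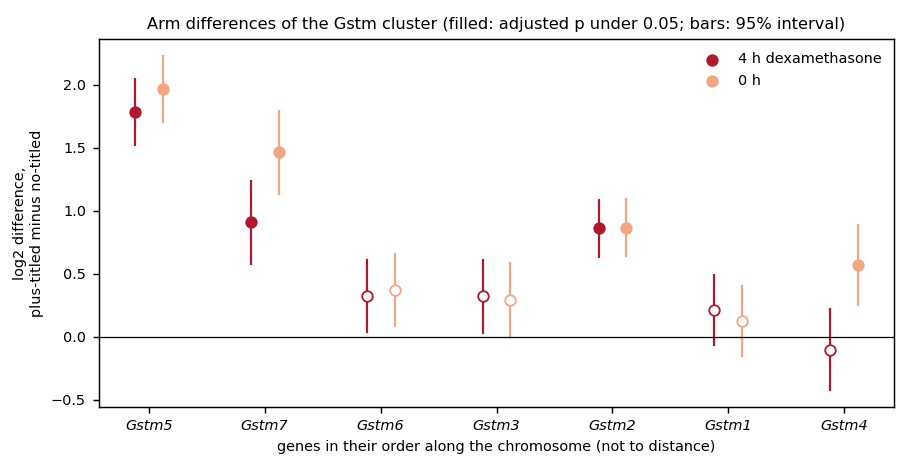
Arm difference (log2, plus-titled minus no-titled, y axis) of the 7 Gstm genes in their order along chromosome 3 (x axis, equal spacing) at 4 h and at 0 h, with 95% intervals and filled points for adjusted p under 0.05. Gstm5 stands highest at both times, and Gstm6, Gstm3 and Gstm1 lie closer to 0 than Gstm2 does. Gstm3 is drawn from its brighter probe set, whose position was not checked.

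The membrane-bound transferases went different ways. Mgst2, which can couple glutathione to leukotriene A4, had 6.82 and 6.99 in the treated plus-titled cells, against 7.76 and 8.15 in the treated no-titled cells. Untreated cells had 6.63 and 6.65 in the plus-titled arm and 7.34 and 7.89 in the no-titled arm. Every plus-titled array lay below every no-titled array. The difference was -1.05 ± 0.18 at 4 h (2.07-fold lower, adjusted p = 0.00545) and -0.97 ± 0.18 at 0 h (1.96-fold lower, adjusted p = 0.00826). The call at 4 h stood in each of the 8 fits without 1 array, and the call at 0 h was lost without replicate 2 of the untreated no-titled group or either untreated plus-titled array (-1.25 to -0.70 over the 8 fits, adjusted p up to 0.0674).

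Mgst1, the abundant microsomal enzyme, had 7.69 and 8.12 in the treated plus-titled cells and 6.93 and 7.40 in the treated no-titled cells. Untreated cells had 7.40 and 7.26 in the plus-titled arm and 6.99 and 7.09 in the no-titled arm. The highest levels were those of the treated plus-titled cells, and replicates at 4 h lay far apart. It was higher by 0.74 ± 0.18 at 4 h (1.67-fold, adjusted p = 0.0245), and at 0 h the difference of 0.29 did not pass (adjusted p = 0.376). The call was lost without replicate 1 of the treated no-titled group or replicate 2 of the treated plus-titled group (0.50 to 0.98 over the 8 fits, adjusted p up to 0.192). Mgst3 differed by -0.19 at 4 h and -0.13 at 0 h and did not pass.

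Gsto1, the omega-class enzyme that also reduces dehydroascorbate, had 7.68 and 7.54 in the treated plus-titled cells, against 8.12 and 8.19 in the treated no-titled cells. Without hormone the level was 7.88 and 7.76 in the plus-titled arm and 8.23 and 8.04 in the no-titled arm. All plus-titled arrays were below all no-titled arrays. The difference was -0.55 ± 0.12 at 4 h (1.46-fold lower, adjusted p = 0.0149) and at 0 h, -0.32, it did not pass (adjusted p = 0.128). Without either treated no-titled array, or with replicate 2 of the treated plus-titled cells left out, the call was lost (-0.62 to -0.47 over the 8 fits, adjusted p up to 0.119).

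No transferase of the pi, theta, kappa or zeta class was called between the arms in the fit over all 8 arrays. Gstp1, the pi-class enzyme, had 10.74 and 10.38 in the treated plus-titled cells and 10.70 and 10.61 in the treated no-titled cells, and at 0 h 10.94 and 11.03 in the plus-titled arm and 10.50 and 10.57 in the no-titled arm. Only the untreated arms were apart, at 0.45 ± 0.13 (adjusted p = 0.0584). Gstp1 became a call at 0 h with median centring, cyclic loess, the lowest 25% of genes left out, trend and robust variance, or either treated plus-titled array left out. The probe sets that Gstp1 shares with Gstp2 differed by 0.15 and 0.13 at 0 h and were not called. Gstt3 of the theta class differed by 0.39 at 4 h and 0.29 at 0 h. Gstt1, Gstt2, Gstk1 and Gstz1 lay between -0.16 and 0.16 at both times. Of these, Gstk1 and Gstm6 lay among the lowest 25% of all genes by level.

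The alpha class was measured by single probe sets for Gsta3 and Gsta4, neither of which was called. Gsta4, which handles the lipid peroxidation product 4-hydroxynonenal, differed by 0.23 at 4 h and -0.02 at 0 h, and the dim Gsta3 by 0.06 and -0.24. Gsta1 and Gsta2 were covered by 4 probe sets, each shared with the predicted genes Gm10639 and Gm3776. They fall outside the rule and were looked at after the data were seen, with each of the 28888 probe sets fitted on its own. The brightest of these had 6.03 and 6.14 in the treated plus-titled cells, against 6.85 and 6.90 in the treated no-titled cells. At 0 h it had 5.36 and 4.71 in the plus-titled arm and 6.48 and 6.46 in the no-titled arm. The untreated plus-titled arrays were the lowest, and lay farthest from each other.

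In that fit limma called all 4 shared probe sets lower in the plus-titled arm at both times. The differences ran from -0.79 to -0.68 at 4 h (adjusted p between 0.00777 and 0.0304) and from -1.44 to -0.94 at 0 h (adjusted p between 0.00102 and 0.00238). Of all probe sets 6.95% were called at 4 h and 6.54% at 0 h. At 0 h all 4 were called in each of the 8 fits without 1 array, and at 4 h in 2 to 5 of the 8 (adjusted p up to 0.134). The probe sets name the same genes, so they are not independent, and which of the 4 genes they read was not tested.

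**Figure D3:**
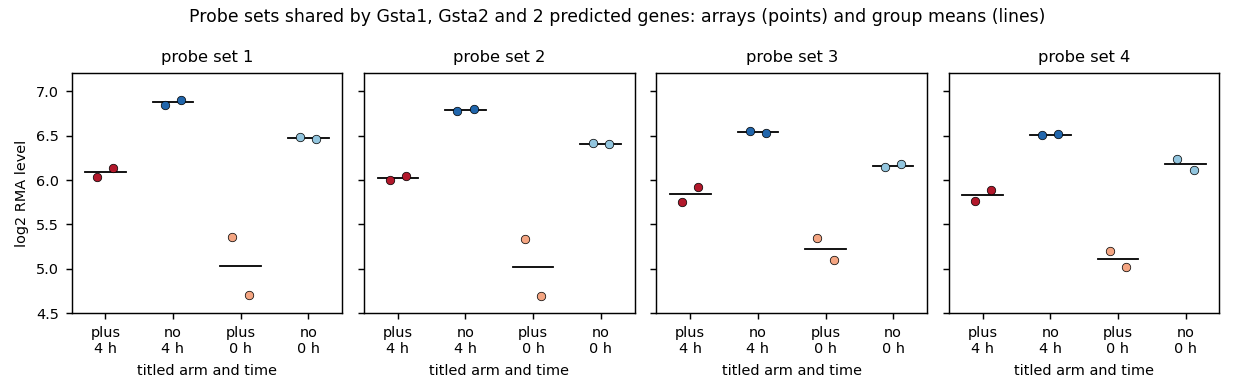
Log2 RMA level (y axis) on each array (points, 2 per group) and group mean (line) for the 4 probe sets shared by Gsta1, Gsta2 and 2 predicted genes, by titled arm and time. In every panel the plus-titled groups lie below the no-titled group of the same time, and the untreated plus-titled group is the lowest.

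Among the other NRF2 genes, Nfe2l2, which encodes NRF2 itself, had 8.65 and 8.70 in the treated plus-titled cells and 8.08 and 8.14 in the treated no-titled cells. Untreated cells had 8.66 and 8.62 in the plus-titled arm and 8.27 and 8.47 in the no-titled arm. The plus-titled arrays were alike at both times and above every no-titled array. The difference was 0.56 ± 0.11 at 4 h (1.48-fold, adjusted p = 0.0102) and 0.27 ± 0.11 at 0 h, which did not pass (adjusted p = 0.177). The call at 4 h was lost without replicate 1 of the treated no-titled group or replicate 2 of the treated plus-titled group (0.53 to 0.59 over the 8 fits, adjusted p up to 0.0837).

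Keap1, the gene of its inhibitor, had 7.75 and 7.55 in the treated plus-titled cells and 7.91 and 7.93 in the treated no-titled cells. Without hormone the level was 7.60 and 7.67 in the plus-titled arm and 7.79 and 7.95 in the no-titled arm. It was lower in all plus-titled arrays, but the differences of -0.27 at 4 h and -0.23 at 0 h did not pass (adjusted p = 0.194 and 0.263).

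Hmox1, which encodes the haem-degrading heme oxygenase 1, had 7.46 and 7.26 in the treated plus-titled cells, against 6.79 and 6.65 in the treated no-titled cells. In untreated cells the level was 7.76 and 7.34 in the plus-titled arm and 7.13 and 7.39 in the no-titled arm. The untreated arms overlapped, and the treated no-titled cells were the lowest. The difference was 0.64 ± 0.15 at 4 h (1.56-fold, adjusted p = 0.0264) and 0.29 at 0 h (adjusted p = 0.313). The call at 4 h was lost without any 1 of the 4 treated arrays (0.54 to 0.74 over the 8 fits, adjusted p up to 0.152). For Nfe2l2 and Hmox1 the change of the difference between 0 h and 4 h, 0.30 and 0.35, did not pass (adjusted p = 0.992 and 0.997).

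Nqo1, the quinone reductase often used to gauge NRF2 activity, had 6.36 and 6.11 in the treated plus-titled cells and 5.59 and 5.89 in the treated no-titled cells. At 0 h it had 6.33 and 6.14 in the plus-titled arm and 6.12 and 5.85 in the no-titled arm. The arms were apart at each time, narrowly at 0 h. Neither difference passed, at 0.49 ± 0.15 at 4 h (95% interval 0.16 to 0.82, adjusted p = 0.0677) and 0.26 ± 0.15 at 0 h (adjusted p = 0.358).

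The genes of the glutathione-making enzymes did not pass. Gclc, the catalytic subunit of the rate-limiting glutamate-cysteine ligase, had 8.55 and 8.37 in the treated plus-titled cells and 8.46 and 8.39 in the treated no-titled cells. Without hormone the level was 8.15 and 7.67 in the plus-titled arm and 8.11 and 8.00 in the no-titled arm. The arms overlapped at both times, and the differences were 0.04 and -0.14. Their sign turned when 1 array was left out, to -0.05 at 4 h with replicate 1 of the treated plus-titled cells left out and to 0.10 at 0 h without replicate 2 of the untreated plus-titled group.

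Gclm, the modifier subunit of that ligase, had 8.43 and 8.16 in the treated plus-titled cells, against 8.79 and 8.57 in the treated no-titled cells. In untreated cells the level was 8.43 and 8.20 in the plus-titled arm and 8.84 and 8.66 in the no-titled arm. The plus-titled arrays were the lower ones at each time. The differences were -0.38 ± 0.14 at 4 h (adjusted p = 0.128) and -0.43 ± 0.14 at 0 h (adjusted p = 0.0846). Gss, the next enzyme of the pathway, differed by 0.22 and 0.29 and the recycling reductase gene Gsr by -0.25 and -0.25, none of them called.

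Srxn1, which encodes the sulfiredoxin that repairs overoxidised peroxiredoxins, had 7.73 and 7.89 in the treated plus-titled cells and 8.20 and 8.03 in the treated no-titled cells. Untreated cells had 7.76 and 7.84 in the plus-titled arm and 8.32 and 8.33 in the no-titled arm. The plus-titled arrays were the lower ones at both times. The difference was -0.30 at 4 h (adjusted p = 0.134) and -0.53 ± 0.11 at 0 h (1.44-fold lower, adjusted p = 0.0163). That call was lost without either untreated no-titled array or replicate 1 of the untreated plus-titled group (-0.56 to -0.49 over the 8 fits, adjusted p up to 0.0991).

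Abcc1, the export pump for glutathione conjugates, had 8.61 and 8.57 in the treated plus-titled cells and 8.85 and 8.86 in the treated no-titled cells. At 0 h it had 8.77 and 8.78 in the plus-titled arm and 9.23 and 9.21 in the no-titled arm. Replicates were nearly equal in every group. The difference was -0.26 at 4 h (adjusted p = 0.149) and -0.44 ± 0.10 at 0 h (1.36-fold lower, adjusted p = 0.0209). The call was lost without any 1 of the 4 untreated arrays (-0.45 to -0.44 over the 8 fits, adjusted p up to 0.131).

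**Figure D4:**
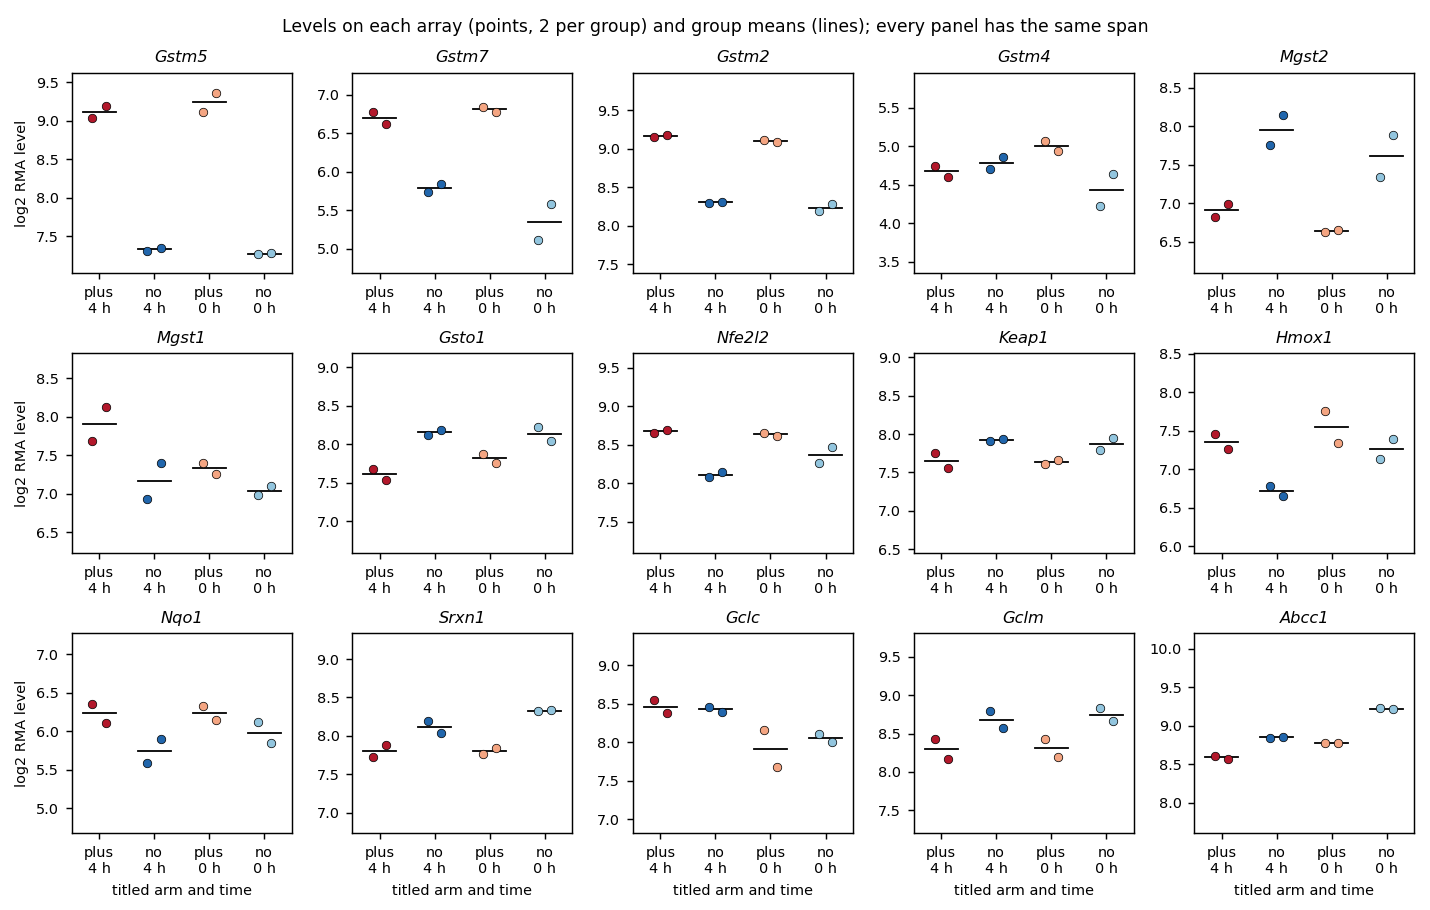
Log2 RMA level (y axis, same span in every panel) on each array (points, 2 per group) and group mean (line) for the 11 members called between the arms and for Keap1, Nqo1, Gclc and Gclm, by titled arm and dexamethasone time. Gstm5, Gstm7, Gstm2 and Mgst2 separate by arm at both times, and the shifts of Nfe2l2, Hmox1, Srxn1 and Abcc1 are smaller.

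The thioredoxin and NADPH genes did not pass either. Prdx1, a peroxide-reducing peroxiredoxin, was the nearest, at 0.32 at 4 h and 0.32 at 0 h (adjusted p = 0.0991 and 0.0949), and its dimmer probe set differed by 0.28 and 0.43. Txn1 (thioredoxin) differed by -0.14 and -0.13 and Txnrd1, its reductase, by -0.14 and -0.18. Of the pentose phosphate enzymes, Tkt differed by -0.26 and -0.25, Taldo1 by -0.03 and -0.22 and Pgd by -0.03 and 0.11. The malic enzyme gene Me1, the catalase gene Cat and Osgin1, an oxidative stress growth inhibitor gene, lay between -0.02 and 0.09.

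The question whether dexamethasone changed these genes was tested in each arm. None of the 38 members was called by limma in either arm, where 1.10% of all genes were called in the plus-titled arm and 1.43% in the no-titled arm. At an unadjusted p under 0.05 there were 5 of 38 members in the plus-titled arm and 6 of 38 in the no-titled arm, and 1990 and 1814 of all 19938 genes. Responses ran from -0.42 (Gstp1) to 0.57 (Mgst1) in the plus-titled arm, with a median of -0.03, and from -0.54 (Hmox1) to 0.44 (Gstm7) in the no-titled arm, with a median of 0.01. The medians of all genes were -0.01 and 0.01. In the no-titled arm 15 of 19 glutathione transferases were above 0 and 15 of 19 other NRF2 genes below (medians 0.09 and -0.11). There 10304 of all 19938 genes were above 0 and 9634 below. In the plus-titled arm 9 of 19 and 5 of 19 were above 0 (medians -0.01 and -0.04), against 9647 of all 19938. Whether the 2 groups of members differ was not tested. Gclc had the same sign in both arms, at 0.55 ± 0.15 in the plus-titled arm and 0.37 ± 0.15 in the no-titled arm (adjusted p = 0.173 and 0.467). In the plus-titled arm its response became a call without replicate 1 of the untreated group (0.79, adjusted p = 0.048). Abcc1 had -0.18 ± 0.10 and -0.37 ± 0.10 (adjusted p = 0.614 and 0.155), and with trend and robust variance limma called it in the no-titled arm (adjusted p = 0.0365). Hmox1 had -0.19 in the plus-titled arm and -0.54 ± 0.15 in the no-titled arm (adjusted p = 0.762 and 0.18). Mgst1 had 0.57 ± 0.18 and 0.12 (adjusted p = 0.24 and 0.946).

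**Figure D5:**
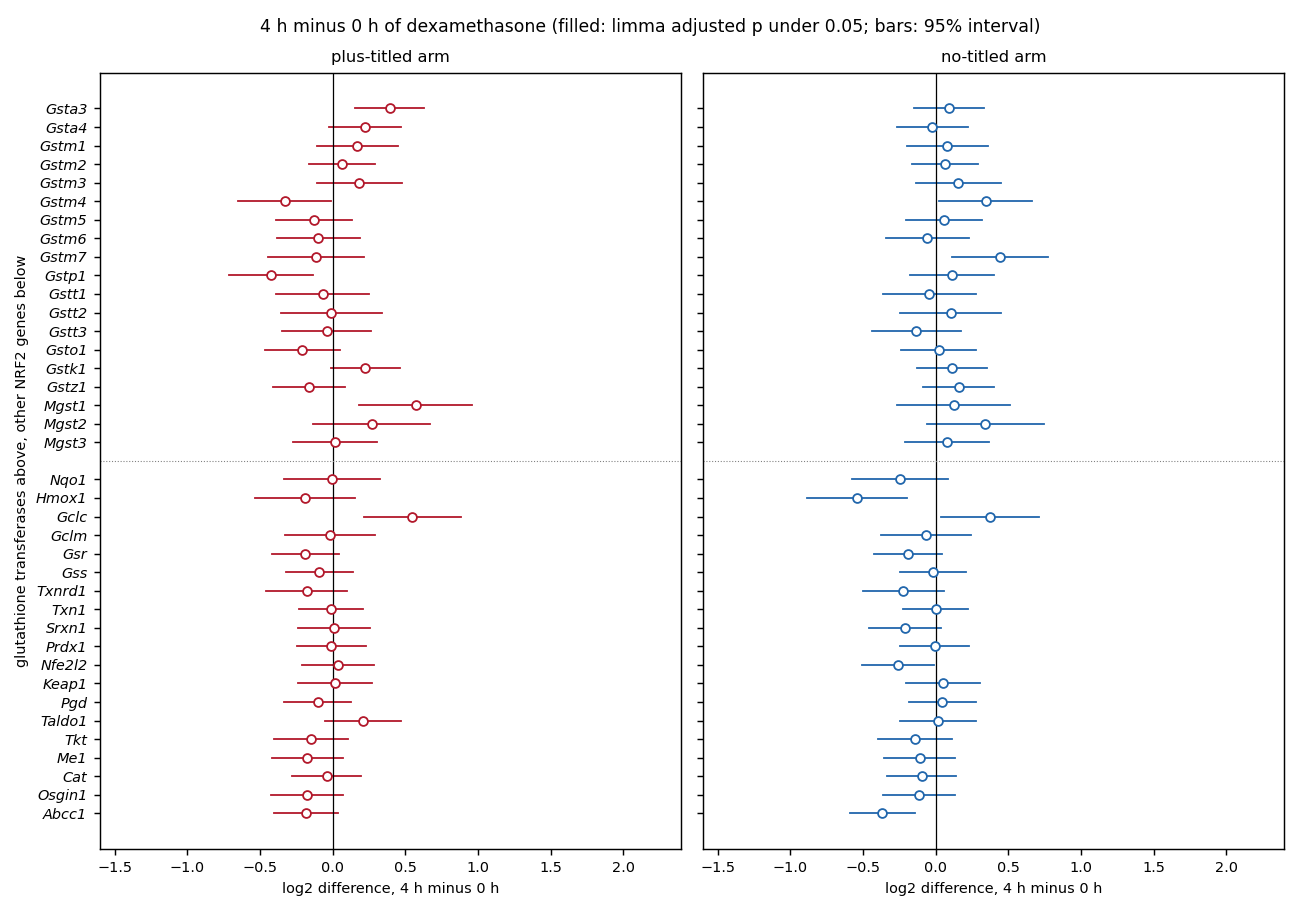
Log2 difference between 4 h and 0 h of dexamethasone (x axis) for the 38 members (rows) in the plus-titled arm (left) and the no-titled arm (right), with 95% intervals; filled points would mark adjusted p under 0.05 and none is filled. All points lie between -0.54 and 0.57, on the same axis as the arm differences.

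The responses of the arms were compared with each other by the difference of the responses, for which 0.00502% of all genes (1 of 19938) and 0 of 38 members were called. An unadjusted p under 0.05 was reached by 1018 of all 19938 genes and by 3 of 38 members, Gstm4 (-0.67 ± 0.20), Gstp1 (-0.54 ± 0.19) and Gstm7 (-0.56 ± 0.21), with adjusted p = 0.76, 0.868 and 0.915. Gstm4 responded by -0.33 in the plus-titled arm and 0.35 in the no-titled arm, Gstp1 by -0.42 and 0.12, and Gstm7 by -0.11 and 0.44. The remaining members lay between -0.32 and 0.45, with intervals that held 0.

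The probe sets shared by Gsta1 and Gsta2 were above 0 in both arms. In the plus-titled arm they differed by 0.62 to 1.05 and 3 of 4 were called higher (adjusted p between 0.0241 and 0.0346, and 0.0633 for the other), where 0.734% of all probe sets were called. In the no-titled arm they differed by 0.33 to 0.40 and 0 of 4 were called (adjusted p between 0.337 and 0.677), where 0.883% were. Over the 8 fits without 1 array the brightest probe set differed by 0.73 to 1.38 in the plus-titled arm, and its call was lost in most of them. Each of these fits keeps a single array in a group, so a lost call can reflect fewer arrays as well as that array's value. The difference of the responses, 0.23 to 0.65, was called for 0 of 4 (adjusted p = 1 for each), where 0.00346% of all probe sets were called.

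Further genes of these pathways came from 5 lists. Their counts of arm differences stand against the 9.61% of all genes called at 4 h and 9.38% at 0 h. These lists too were chosen with earlier results of these data known. A share above that of all genes is therefore a description and no independent support. Of 21 measured genes of glutathione supply and glutathione peroxidases, 5 were called at each time (23.8%), 2 higher and 3 lower in the plus-titled than in the no-titled arm. Slc7a11, the cystine carrier that feeds glutathione synthesis, had 5.22 and 5.36 in the treated plus-titled cells, against 7.38 and 7.74 in the treated no-titled cells, and at 0 h 5.25 and 5.40 in the plus-titled arm and 7.46 and 7.71 in the no-titled arm. It was lower by about the same amount at both times, at -2.27 ± 0.15 at 4 h and -2.27 ± 0.15 at 0 h (4.82-fold and 4.81-fold lower, adjusted p = 5.67e-05 and 2.92e-05). Its heavy chain partner Slc3a2 differed by -0.48 at 4 h and -0.60 at 0 h, and Chac1, which degrades glutathione, by -1.13 and -0.98. The mitochondrial glutaredoxin gene Glrx2 differed by 0.44 and 0.58. Slc7a11 and Chac1 were called in each of the 8 fits without 1 array at both times, Slc3a2 in 4 at 4 h and 7 at 0 h (adjusted p up to 0.0957 and 0.0551), and Glrx2 in 2 and 6 (adjusted p up to 0.267 and 0.132).

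Of 14 genes of the peroxiredoxins, the thioredoxin system and superoxide dismutases, 3 were called at each time (21.4%), all higher in the plus-titled than in the no-titled arm, where 5.29% of all genes were higher at 4 h and 6.20% at 0 h. They were Txnip, an inhibitor of thioredoxin (1.77 ± 0.15 at 4 h and 2.00 ± 0.15 at 0 h), and the sestrin genes Sesn1 (0.69 and 0.69) and Sesn3 (0.66 and 0.71). Txnip was called in each of the 8 fits without 1 array at both times, Sesn1 in 6 at 4 h and 4 at 0 h (adjusted p up to 0.195 and 0.183), and Sesn3 in 6 and 5 (adjusted p up to 0.122 and 0.068).

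Of 27 further NRF2 target genes, 3 were called between the arms at 4 h (11.1%, near the 9.61% of all genes) and 5 at 0 h (18.5%, against 9.38%), all higher in the plus-titled arm, with medians of 0.10 and 0.03. These 27 leave out the members, of which Nfe2l2 and Hmox1 were called higher at 4 h and Srxn1 and Abcc1 lower at 0 h. They also leave out Slc7a11, lower at both times, which was counted with glutathione supply. Aox1, an aldehyde oxidase gene, was higher by 0.55 at 4 h and 0.78 at 0 h, and the aldo-keto reductase gene Akr1b10 by 0.61 and 0.52. Ptgr1, a prostaglandin reductase gene, was called at 4 h alone (0.46), and Blvra (biliverdin reductase, 0.45) and Aldh3a1 (an aldehyde dehydrogenase, 0.45) at 0 h alone. Aox1 was called in 5 of the 8 fits without 1 array at 4 h and 8 at 0 h (adjusted p up to 0.143 at 4 h), and Akr1b10 in 7 and 6 (adjusted p up to 0.0573 and 0.0822). Ptgr1 was called in 2, Aldh3a1 in 1 and Blvra in 0 of them (adjusted p up to 0.161, 0.174 and 0.271).

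Of 17 NRF2 partners and regulators, 1 was called between the arms at 4 h, lower (5.88%, below the 9.61% of all genes), and 3 at 0 h, higher (17.6%, against 9.38%). At 4 h Palb2, whose protein can bind KEAP1, differed by -0.44 (2 calls in 8 fits without 1 array, highest adjusted p 0.207). At 0 h the ubiquitin ligase adaptor gene Btrc was higher by 0.80, Mafk, a partner of NRF2, by 0.46 and Dpp3 by 0.39, with 5, 2 and 0 calls in such fits (highest adjusted p 0.107, 0.23 and 0.249). Of 8 relatives of the transferases, Gstcd alone was called (12.5% at each time, near the share of all genes), at -0.58 at 4 h and -0.60 at 0 h (6 and 7 calls in such fits, highest adjusted p 0.0637 and 0.0616).

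In these lists the hormone raised few genes and lowered none, where 0.823% of all genes rose and 0.281% fell in the plus-titled arm and 1.03% rose and 0.401% fell in the no-titled arm. Sesn1 rose by 1.40 ± 0.16 in the plus-titled arm and 1.41 ± 0.16 in the no-titled arm (adjusted p = 0.0016 and 0.00112), and the glutaredoxin gene Glrx by 0.94 ± 0.17 and 1.25 ± 0.17 (adjusted p = 0.0218 and 0.00274). The metallothionein gene Mt1 rose by 2.07 and 2.41. Txnip rose in the no-titled arm by 0.78 ± 0.15 (adjusted p = 0.0297). These were the genes called, 1 of 21 for glutathione supply in each arm, 1 of 27 for further targets in each arm, and 1 of 14 in the plus-titled and 2 of 14 in the no-titled arm for the thioredoxin list. Without 1 array Glrx was called 5 times among 8 in the plus-titled arm (adjusted p up to 0.224) and Txnip in 4 in the no-titled arm (adjusted p up to 0.295).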

How the data were processed

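The authors deposited log2 expression values for 28888 probe sets on 8 arrays. The submitters' processing notes name RMA and Affymetrix Expression Console, without versions. Probe sets were named by the array's annotation, updated by gene number through RefSeq (GRCm38.p6, names, gene order and promoter windows only). Of these, 21789 had 1 symbol, 1621 had several and 5478 were not named. The brightest probe set with 1 symbol stood for its gene, which left 19938 genes with no filter on level. limma 3.58.1 in R 4.3.3 (lmFit, eBayes) estimated 4 group means from the 8 arrays together. Tests were 2-sided and p-values were adjusted across all genes (Benjamini-Hochberg). It had 4 residual degrees of freedom, a prior of 6.64 and a prior SD of 0.127. The number of arrays limits the precision. The fit was tested on simulated data. Groups follow the titles.

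Members and lists were chosen with earlier results of these data known. Members called in any contrast, with Nfe2l2, Keap1, Nqo1, Hmox1, Gclc and Gclm, are described by array; from further lists up to 4 called genes per arm contrast, and up to 2 per hormone contrast, with the largest difference are named, counts permitting. Alternatives were variance model, arrays fitted, replicate block, dim-gene filter, centring, loess, probe set rule, leaving out single arrays, and a minimum of 1.5-fold. Sequences are RefSeq's.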

Additional observations from a re-analysis of the deposited data

How the results depend on the processing

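With 2 arrays per group, many calls were lost when a single array was left out. Such a fit keeps a single array in a group, so a lost call can reflect fewer arrays as well as that array's value. At 0 h the difference of Abcc1 stayed between -0.45 and -0.44 in these fits, while that of Mgst2 ran from -1.25 to -0.70. The count of members called between the arms ranged from 4 to 8 at 4 h and from 3 to 8 at 0 h over the 8 fits without 1 array, and from 6 to 10 and 4 to 10 over the 9 other settings. A 1.5-fold minimum left 4 at 0 h and 6 at 4 h. Gstm2, Gstm5 and Gstm7 were called at both times in all 17 alternatives. Members called for the hormone ranged from 0 to 1 in the plus-titled arm without 1 array (Gclc), and trend and robust variance gave 1 in the no-titled arm (Abcc1); for the difference of the responses 0 was called in every alternative run. Calls gained at 4 h were Nqo1 (trend and robust variance, lowest 25% left out), Prdx1 (trend and robust variance, cyclic loess) and Gclm (replicate block). Those gained at 0 h were Gstp1 and Gclm under several settings, Prdx1 (trend and robust variance), Gsto1 (cyclic loess) and Gstm3 (without replicate 2 of the untreated plus-titled group). Gclc changed sign, ranging from -0.053 to 0.13 at 4 h and from -0.38 to 0.10 at 0 h without 1 array.

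Over all genes, 1916 were called between the arms at 4 h and 1870 at 0 h, with 654 to 2128 and 589 to 1642 without 1 array and 1017 and 951 with a 1.5-fold minimum. The hormone called 220 in the plus-titled and 285 in the no-titled arm, 80 to 187 and 134 to 291 without 1 array, and 370 and 461 with trend and robust variance. The difference of responses called 1 gene, 0 to 2 without 1 array, 11 with trend and robust variance and 2 with median centring.

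The labels number the replicates in every group, but nothing says that a number marks a shared batch. Deviations of same-numbered arrays correlated at -0.02 to 0.13 over the 6 pairs of groups, so the samples were treated as sharing only a number. That correlation is over all genes and does not show what single members did. Gclm, for example, was higher in replicate 1 than in replicate 2 in every group, while the order for Hmox1 varied. Whether such an order marks a batch was not tested. With the replicate block, members called between the arms were 9 at 4 h and 8 at 0 h, Gclm being the addition at both times, and 0 members were called in either hormone response. The response of the brightest Gsta1 and Gsta2 probe set in the plus-titled arm lost its call under the block (1.05, adjusted p = 0.0609). Among promoters of the 35 members with a window, the longer ARE form was found in 2 and the AP-1 site in 7, against 12 for the core. No detection calls were used, so dim members such as Gstk1 and Gstm6 have no stated background.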
